A study of Mus musculus with 4 samples.

Results

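Expression of 9 genes of plasminogen activation and coagulation was examined in mouse distal colon, measured on 4 Affymetrix arrays of total RNA with 1 mouse per array. The genes were Plau, Plaur, Plat, Serpinb2, F3, Thbd, Procr, Fgl2 and Tfpi, chosen by name, and every probe set that the platform annotation gives to 1 of these symbols was taken, 15 in all. They are 9 of the 18193 genes with such a probe set. The groups were Adamts12 KO mice given 2% dextran sodium sulfate (DSS) in the drinking water, Adamts12 WT mice given 2% DSS, untreated Adamts12 KO mice and untreated Adamts12 WT mice, with 1 array each. DSS injures the colonic epithelium and causes colitis, and Adamts12 encodes a secreted metalloprotease. DSS lasted 8 days by the treatment protocol and 7 days by the series text, and 1 day without DSS followed in both. Treatment began at 8 to 10 weeks of age. The mouse strain and the part of Adamts12 that was removed are not given in the labels. No difference between a pair of arrays has a replicate check, and each array enters several comparisons.

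Plasminogen is cleaved to plasmin, which dissolves fibrin and also acts on matrix proteins and on pro-forms of metalloproteases. The activators are urokinase (Plau), which works at the cell surface on its receptor (Plaur), and tissue-type plasminogen activator (Plat), and Serpinb2 encodes an inhibitor of both. Coagulation starts when tissue factor (F3) meets plasma factor VII, a step that tissue factor pathway inhibitor (Tfpi) blocks. Thrombomodulin (Thbd) binds thrombin and, with the endothelial protein C receptor (Procr), turns it to the activation of the anticoagulant protein C. Fgl2 encodes a fibrinogen-like protein whose membrane form can cleave prothrombin and whose secreted form restrains immune cells.

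The arrays were first set against their labels. The brighter Adamts12 probe set (1439827_at) had log2 values of 1.41 on the KO DSS, 2.18 on the WT DSS, 1.42 on the untreated KO and 2.18 on the untreated WT array. Its rank among the probe sets of an array never passed percentile 32.7, so it is a weak check of the genotypes. All 12 markers of colonic epithelium passed the filter on dim probe sets, with median log2 levels between 10.49 and 11.06. Hoxb13, a homeobox gene of the posterior body, had log2 values of 8.40 on the KO DSS, 7.84 on the WT DSS, 2.48 on the untreated KO and 9.47 on the untreated WT array. Hoxd13, another posterior homeobox gene (probe set 1440626_at), had log2 values of 7.20 on the KO DSS, 4.22 on the WT DSS, 3.36 on the untreated KO and 8.82 on the untreated WT array, and Car1, a carbonic anhydrase gene of colonic epithelium, had 10.54, 10.80, 12.90 and 10.19 in that order. KO minus WT without DSS was -6.99 for Hoxb13, -5.46 for Hoxd13 and 2.71 for Car1. The untreated KO array thus stood furthest apart in genes whose level depends on the stretch of gut. On that array the genotype and the segment sampled cannot be told apart. Hoxd13 was low on the WT DSS array too, with DSS minus untreated in WT at -4.6 and KO minus WT with DSS at 2.98. Its other probe set (1422239_at) gave -2.82 and 1.10, and Hoxb13 gave -1.63 and 0.56. Differences that use the WT DSS array may therefore also carry a difference of segment, which was not tested. For genes named as 2-fold apart with DSS in KO, the difference of the KO DSS array from the untreated WT array is given too. KO minus WT differences without DSS have no value without the untreated KO array. As a background limit, 1.39 on the log2 scale was used, which is the most that any of 9 probe sets for Y-linked genes reached on these Xist-positive arrays. It was taken after the values were seen, and lower values are called not above background.

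Of the 9 genes, 7 were represented by a probe set above the array median on all 4 arrays, so that the filter forced no difference on them. Plau and Serpinb2 did not pass it. The brighter Plau probe set (1422138_at) had log2 values of 2.22 on the KO DSS and 2.25 on the WT DSS array, against 1.85 on the untreated KO and 2.04 on the untreated WT array. It spanned 0.40 on the log2 scale over the 4 arrays and reached percentile 33.7 at most. The other Plau probe set (1422139_at), with log2 values of 0.88, 0.95, 0.91 and 0.97 in the same order of arrays, was not above background on any of them. The Serpinb2 probe set (1419082_at) was likewise not above background, with log2 values of 1.11 on the KO DSS, 0.68 on the WT DSS, 1.11 on the untreated KO and 0.91 on the untreated WT array. No difference is drawn from these dim probe sets.

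**Figure D1:**
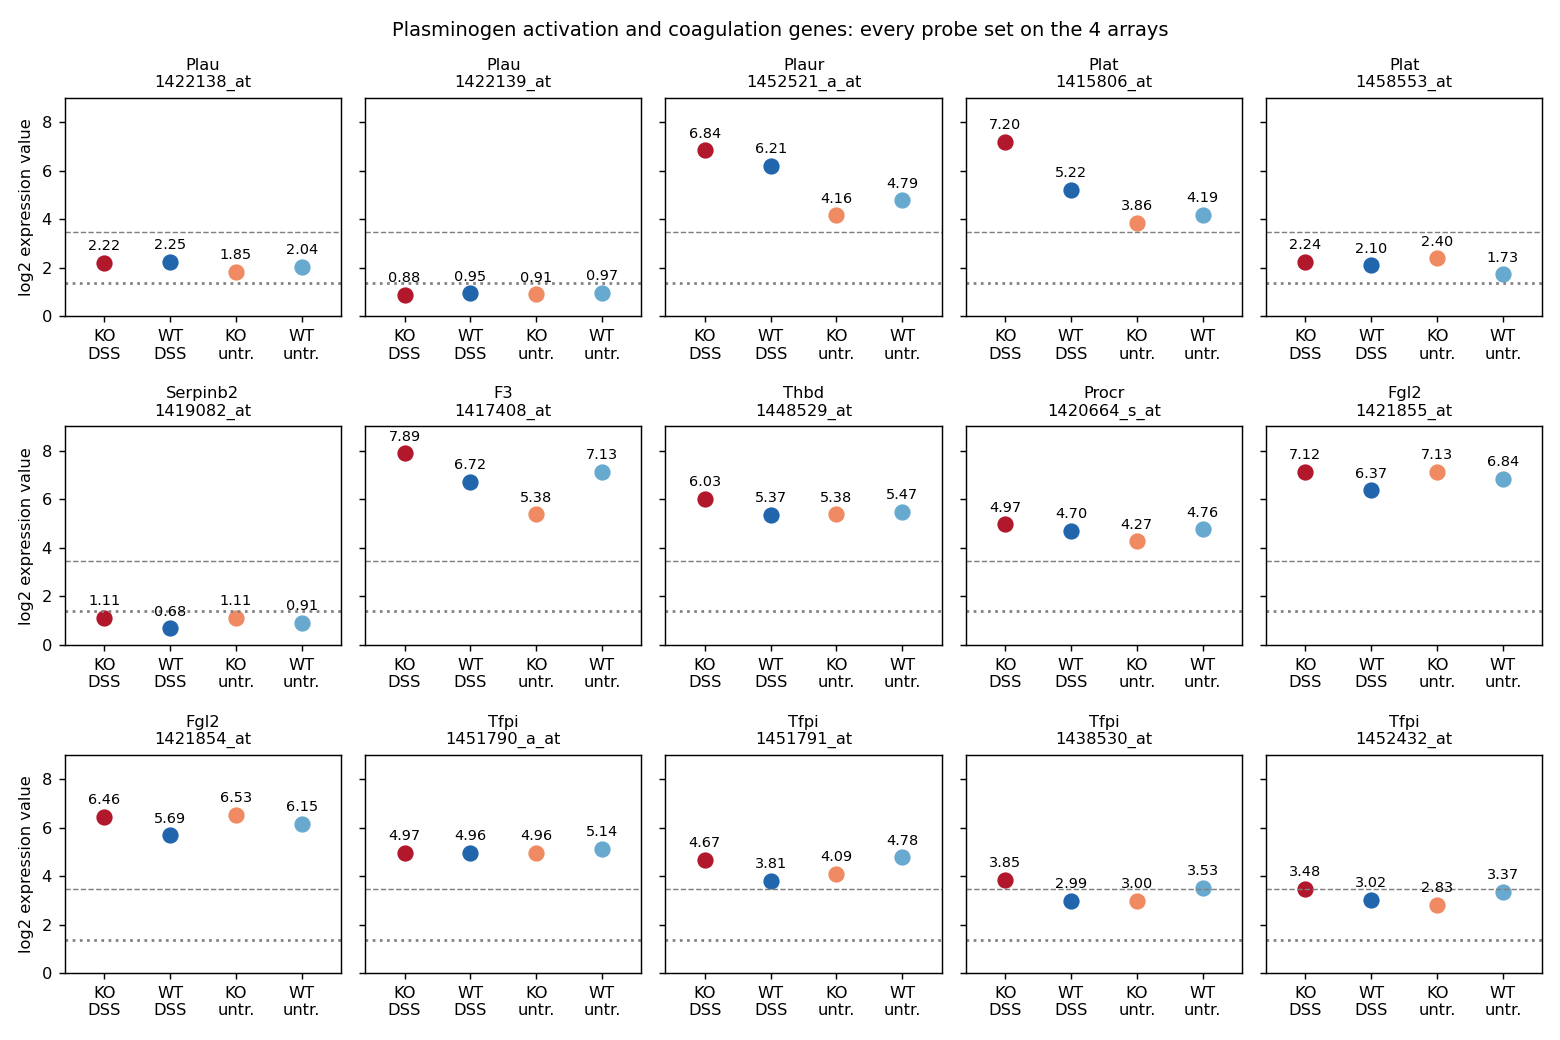
Each panel shows 1 probe set, with the log2 expression value on the vertical axis and the 4 arrays (KO DSS, WT DSS, untreated KO, untreated WT) along the horizontal axis, 1 point per array. The dotted line marks the background limit of 1.39 and the dashed line the highest array median, 3.46. Plaur and Plat (1415806_at) were higher on both DSS arrays than on both untreated arrays, F3 was lowest on the untreated KO array, and Serpinb2 lay below the dotted line.

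Plaur and Plat were the genes of the set that were higher with DSS in both genotypes. The Plaur probe set (1452521_a_at) had log2 values of 6.84 on the KO DSS and 4.16 on the untreated KO array, and of 6.21 on the WT DSS and 4.79 on the untreated WT array. The DSS and untreated arrays did not overlap, as for 26.4% of all genes in that direction, and the lowest DSS value lay 1.42 above the highest untreated value on the log2 scale. DSS minus untreated was 2.68 in KO, a 6.41-fold difference, and 1.42 in WT, a 2.68-fold difference. Among the 12189 genes compared, 110 had a DSS difference at least as high as that of Plaur in KO and 268 in WT.

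Plat, the tissue-type activator, had log2 values on its brighter probe set (1415806_at) of 7.20 on the KO DSS and 3.86 on the untreated KO array, and of 5.22 on the WT DSS and 4.19 on the untreated WT array. Again the DSS and untreated arrays did not overlap, and they were 1.03 apart at the nearest on the log2 scale. DSS minus untreated was 3.34 in KO, a 10.1-fold difference, and 1.03 in WT, a 2.04-fold difference that lies close to the 2-fold threshold. In KO, 53 of the 12189 genes had a difference at least as high, and in WT 670 had. The other Plat probe set (1458553_at) was dim, at log2 values of 2.24 on the KO DSS, 2.10 on the WT DSS, 2.40 on the untreated KO and 1.73 on the untreated WT array, and did not follow the brighter one.

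At least 2-fold higher levels with DSS were seen for 3 of the 7 genes in KO (Plaur, Plat and F3), where 10.8% of all genes compared were that much higher. In WT they were seen for 2 of the 7 (Plaur and Plat), against 5.82% of all genes. None of the 7 was 2-fold lower with DSS, where 6.68% of all genes were in KO and 4.96% in WT. The median DSS difference of the 7 genes on the log2 scale was 0.70 in KO and -0.10 in WT, beside 0.06 and -0.01 over all genes. Set against the untreated WT array in place of the untreated KO array, the KO DSS array was higher by 2.05 for Plaur, 3.01 for Plat and 0.76 for F3 on the log2 scale. Plaur and Plat thus stayed past 2-fold without the untreated KO array, and F3 did not. In that comparison the shares past 2-fold over all genes were 6.14% on the higher side and 5.05% on the lower. Both DSS arrays were at least 2-fold above both untreated arrays for 240 of the 12189 genes (1.97%), Plaur and Plat among them.

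In limma's model over the 4 arrays with genotype as covariate, the DSS estimate for Plaur was 2.05 (SE 0.40) on the log2 scale, with a Benjamini-Hochberg adjusted p of 0.365 over all genes. For Plat it was 2.19 (SE 0.64, limma adjusted p = 0.395) and for F3 1.05 (SE 0.80, limma adjusted p = 0.672). The estimates of the other 4 genes lay between -0.24 for Fgl2 and 0.32 for Procr, with limma adjusted p-values from 0.747 to 0.918. Of all 12189 genes, limma called 0 at an adjusted p under 0.05 (0% higher, 0% lower) and 1438 at an unadjusted p under 0.05, 932 higher and 506 lower. Plaur and Plat were among the 932, which are 7.65% of all genes, with unadjusted limma p-values of 0.00845 and 0.0313. The model has 1 residual degree of freedom and takes unequal DSS effects in KO and WT as its error. That error is pooled with a trend over all genes, which carries a median of 2.68 prior degrees of freedom. Its p-values therefore measure no spread between mice of a group.

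**Figure D2:**
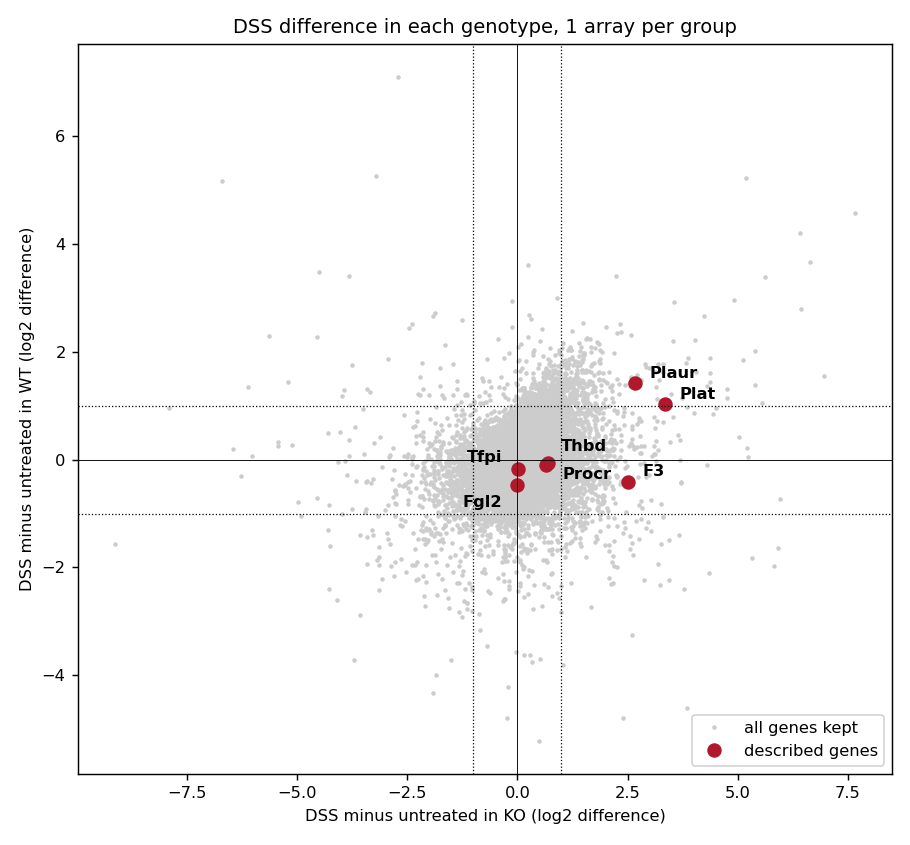
Each grey point is 1 of the 12189 genes, with the log2 difference DSS minus untreated in KO on the horizontal axis and in WT on the vertical axis, and the 7 described genes are drawn in red. Dotted lines mark 2-fold differences. Plaur (2.68 and 1.42) and Plat (3.34 and 1.03) lie in the upper right, F3 (2.51 and -0.41) to the right and just below 0, and the other 4 genes inside the dotted lines.

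F3, the starter of coagulation, had log2 values on its probe set (1417408_at) of 7.89 on the KO DSS and 5.38 on the untreated KO array, and of 6.72 on the WT DSS and 7.13 on the untreated WT array. The DSS and untreated arrays overlapped, and the untreated KO array was the low one. DSS minus untreated was 2.51 in KO, a 5.70-fold difference, and -0.41 in WT. KO minus WT was 1.17 with DSS and -1.75 without DSS, so F3 was at least 2-fold higher in KO colon with DSS and at least 2-fold lower without it. That combination was seen for 106 of all genes compared (0.87%), and in F3 alone among the 7. Without DSS, 200 of the 12189 genes had a KO minus WT difference at or below that of F3. The untreated KO array, which enters 2 of these differences, is the array with low Hoxb13. With the untreated WT array as its only untreated array, F3 was 0.76 higher on the KO DSS and 0.41 lower on the WT DSS array on the log2 scale, both short of 2-fold.

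Sequences around the annotated starts of the genes of the set were searched for the AP-1 motif TGANTCA, whether or not the genes differed. AP-1 is known to act on the promoters of human PLAUR and F3. RefSeq windows of GRCm38.p6, running from 250 bases before to 50 after a start, matched 6 of the 9 genes by symbol (Plaur, Serpinb2, F3, Procr, Fgl2 and Tfpi). Plau, Plat and Thbd had no window and were not searched, so Plat, with the greatest DSS difference in KO, is missing here. The motif, which reads the same on both strands, was present in a window of 5 of them, all but Tfpi, and in a window of 8.97% of the 27025 genes in that table (6.68% of those among the genes compared). The 250 bases before the start of Plaur (chr7:24462233-24462482, plus strand) and of F3 (chr3:121723287-121723536, plus strand) are shown 5′ to 3′ with each match in capitals. Plaur holds 1 match, beginning 69 bases before the start, and F3 holds 2, beginning 146 and 135 bases before it.
Plaur: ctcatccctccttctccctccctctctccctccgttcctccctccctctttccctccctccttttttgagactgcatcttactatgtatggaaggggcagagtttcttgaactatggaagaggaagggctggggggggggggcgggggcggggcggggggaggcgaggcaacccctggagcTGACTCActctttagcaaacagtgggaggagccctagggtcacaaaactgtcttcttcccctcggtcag
F3: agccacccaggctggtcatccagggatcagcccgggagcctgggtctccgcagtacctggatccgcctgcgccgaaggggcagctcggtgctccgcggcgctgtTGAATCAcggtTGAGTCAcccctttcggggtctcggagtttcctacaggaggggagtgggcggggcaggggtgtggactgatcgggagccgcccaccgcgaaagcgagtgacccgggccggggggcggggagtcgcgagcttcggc
The matches of Procr (chr2:155751046-155751086), Fgl2 (chr5:21372640-21372672) and Serpinb2 (chr1:107511312-107511352), all on the plus strand, are given with up to 17 bases on each side, to set them beside those of Plaur and F3.
Procr: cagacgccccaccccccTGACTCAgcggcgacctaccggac
Fgl2: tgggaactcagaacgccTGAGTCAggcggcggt
Serpinb2: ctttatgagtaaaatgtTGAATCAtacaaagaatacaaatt
Serpinb2, which was not above background on any array, holds the motif as well as Plaur and F3 do. The NF-kB motif (GGGA, any base, TTTCC) was found in none of the 6 genes on either strand and in 0.466% of all genes with a window. The Kruppel-like factor motif CACCC, searched on both strands, was found in 4 of the 6 (F3, Procr, Fgl2 and Tfpi) and in 59.8% of all genes with a window (67.3% of those compared), and in F3 one copy overlaps the second AP-1 match. A match describes letters in the window and shows no binding.

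Among DSS-treated mice, Plat and F3 were at least 2-fold higher in KO than in WT colon, 2 of the 7 genes, where 4.22% of all genes compared were that much higher. None of the 7 was 2-fold lower, where 1.21% of all genes were. For Plat, KO minus WT with DSS was 1.98 on the log2 scale, a 3.94-fold difference, and 74 of the 12189 genes had a difference at least as high. For F3 it was a 2.25-fold difference. Plaur was 0.63 higher in KO under DSS, short of 2-fold. The median KO minus WT difference of the 7 genes with DSS was 0.66, beside -0.02 over all genes. For 6 of the 7 the difference lay above 0 under each scaling tried. Tfpi, at 0.01, turned to -0.02 with quantile normalization and to -0.01 with median centring. Over all genes, 45.3% had a difference above 0.

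Without DSS, F3 was the 1 gene of the 7 at least 2-fold lower in KO than in WT colon, where 5.98% of all genes were that much lower, and none was 2-fold higher, where 3.43% were. Plaur was at -0.63 and Procr at -0.49 on the log2 scale, and Plat at -0.33. The median of the 7 was -0.33, beside -0.01 over all genes. In limma's model over both treatments, with treatment as covariate, the KO minus WT estimates of the 7 genes lay between -0.29 (SE 0.80) for F3 and 0.82 (SE 0.64) for Plat, each with an adjusted p of 1 over all genes. For this term limma called 0 of 12189 genes at an adjusted p under 0.05 and 176 at an unadjusted p under 0.05, 82 higher (0.673%) and 94 lower (0.771%), with none of the 7 genes among them.

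The DSS difference was greater in KO than in WT for all 7 genes, and for 49.8% of all genes. It was at least 2-fold greater for 3 of the 7, by 2.92 for F3, 2.31 for Plat and 1.26 for Plaur on the log2 scale, where 12.3% of all genes were that much greater, and at least 2-fold less for none, where 5.92% were. This difference of differences uses all 4 arrays and could not be tested. For F3, 117 of the 12189 genes had a value at least as high, for Plat 253 and for Plaur 1036. For Plat most of it came from the DSS arrays, with KO minus WT at 1.98 with DSS and -0.33 without. For F3 the untreated arrays gave the greater share, with KO minus WT at 1.17 with DSS and -1.75 without. For Plaur the 2 parts were equal in size, at 0.63 with DSS and -0.63 without.

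The anticoagulant receptor genes Thbd and Procr differed less. The Thbd probe set (1448529_at) had log2 values of 6.03 on the KO DSS and 5.38 on the untreated KO array, and of 5.37 on the WT DSS and 5.47 on the untreated WT array. KO colon with DSS was the high one, and the other 3 arrays lay within 0.10 of each other. KO minus WT was 0.66 with DSS, a 1.58-fold difference, and DSS minus untreated was 0.65 in KO and -0.10 in WT. The Procr probe set (1420664_s_at) had log2 values of 4.97 on the KO DSS and 4.27 on the untreated KO array, and of 4.70 on the WT DSS and 4.76 on the untreated WT array. Here the untreated KO array was the low one, and DSS minus untreated was 0.70 in KO and -0.06 in WT. The KO DSS array was higher than the untreated WT array by 0.56 for Thbd and by 0.21 for Procr. The suffix of the Procr probe set says that it can match more than 1 transcript.

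The 4 Tfpi probe sets did not give the same picture. The brightest (1451790_a_at) was nearly level, with log2 values of 4.97 on the KO DSS, 4.96 on the WT DSS, 4.96 on the untreated KO and 5.14 on the untreated WT array. The next (1451791_at) had log2 values of 4.67 on the KO DSS and 4.09 on the untreated KO array, and of 3.81 on the WT DSS and 4.78 on the untreated WT array. On that probe set DSS minus untreated was 0.58 in KO and -0.97 in WT, just short of 2-fold. The third (1438530_at) had log2 values of 3.85 on the KO DSS, 2.99 on the WT DSS, 3.0 on the untreated KO and 3.53 on the untreated WT array, and the fourth (1452432_at) had 3.48, 3.02, 2.83 and 3.37 in that order. All 3 dimmer probe sets were higher in KO than in WT with DSS, by 0.86, 0.86 and 0.46 on the log2 scale. Without DSS they were lower in KO, at -0.69, -0.53 and -0.54. Of these, 1451791_at was above the array median on all 4 arrays. The fourth probe set passed the filter through the KO DSS array alone, so it could only be higher there. The third passed through the KO DSS and untreated WT arrays alone, so its directions were partly set by the filter. The gene is known to give several transcripts by alternative splicing, and which of them each probe set reads is not stated in the annotation. With the mean over its probe sets in place of the brightest, the difference of the DSS effect between KO and WT was 1.03 for Tfpi, against 0.19.

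Fgl2 was measured by 2 probe sets that ran in parallel. The brighter (1421855_at) had log2 values of 7.12 on the KO DSS and 6.37 on the WT DSS array, and of 7.13 on the untreated KO and 6.84 on the untreated WT array. The other (1421854_at) had log2 values of 6.46 on the KO DSS and 5.69 on the WT DSS array, and of 6.53 on the untreated KO and 6.15 on the untreated WT array. On both, the WT DSS array was lowest, and the 2 KO arrays lay within 0.07 of each other. KO minus WT on the brighter probe set was 0.75 with DSS and 0.29 without, which made Fgl2 the 1 gene of the 7 that was higher in KO than in WT in both treatments on the deposited scale. With quantile normalization Thbd, at 0.02 without DSS, was so too. The limma estimate of KO minus WT was 0.52 (SE 0.26, adjusted p = 1 over all genes).

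Other genes of the pathway were taken from 4 lists of 50 genes, of which 23 passed the filter. In KO, 6 of the 23 were at least 2-fold higher with DSS and 4 lower, where 10.8% and 6.68% of all genes were, with a median log2 difference of 0.47, beside 0.06 over all genes. With the KO DSS array set against the untreated WT array, 4 were higher (Mmp3, Serpini1, F10 and Anxa5) and 2 lower (Hgfac and Gas6). In that comparison 6.14% and 5.05% of all genes were, and the median was 0.24, beside 0.02. In WT, 1 was higher and 3 lower, where 5.82% and 4.96% of all genes were, with a median of -0.17, beside -0.01. With DSS, 5 were at least 2-fold higher in KO than in WT and 0 lower, where 4.22% and 1.21% of all genes were. Serpini1 and F10 passed the filter through the KO DSS array alone, so in these counts they could only be higher on that array. Mmp3 passed through the DSS arrays alone, so its direction with DSS was set by the filter as well. Without DSS, 1 was higher (Lrp1, an endocytic receptor that clears protease and inhibitor complexes, by 1.22) and 1 lower (Pros1), where 3.43% and 5.98% of all genes were.

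In the plasminogen list (11 of 17 genes kept), Mmp3, a matrix metalloprotease whose pro-form plasmin can activate, had log2 values of 8.21 on the KO DSS and 1.58 on the untreated KO array, and of 5.46 on the WT DSS and 1.80 on the untreated WT array. Its DSS difference was 6.63 in KO and 3.66 in WT, and the KO DSS array lay 6.41 above the untreated WT array. It was kept through the DSS arrays, so its direction with DSS was set by the filter. Serpini1, neuroserpin, an inhibitor of tissue-type activator, was higher by 1.46 with DSS in KO and by 1.55 in KO over WT with DSS. It lay 1.21 above the untreated WT array, and since the KO DSS array alone let it pass, it could only be higher there. Hgfac, the activator of hepatocyte growth factor, was lower with DSS at -1.81 in KO and -1.05 in WT, and Plgrkt, a plasminogen receptor, at -1.13 and -1.03. KO DSS minus untreated WT was -1.79 for Hgfac and -0.98 for Plgrkt. The cell-surface plasminogen binders Anxa2 and S100a10 were higher by 0.89 and 0.68 with DSS in KO and by 0.53 and 0.51 in WT, short of 2-fold. Plasminogen itself (Plg) reached percentile 28.2 at most and was not kept.

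Of 19 coagulation factor genes 5 passed the filter, and the fibrinogen genes Fga, Fgb and Fgg, whose products come from liver, did not, with log2 values between 0.85 and 1.59 on their brightest probe sets. F13a1, the subunit of factor XIII that cross-links fibrin and is made in macrophages, was higher by 1.06 with DSS in KO, differed by -0.83 in WT, and was higher by 1.59 in KO over WT with DSS. Against the untreated WT array its KO DSS value was 0.76 higher, short of 2-fold. F10, which passed through the KO DSS array alone, was higher by 1.31 with DSS in KO, by 2.11 against the untreated WT array and by 1.44 in KO over WT with DSS. Of 10 anticoagulant genes 5 passed. Pros1, protein S, the cofactor of activated protein C, had log2 values of 6.09 on the KO DSS and 4.15 on the untreated KO array, and of 4.89 on the WT DSS and 5.63 on the untreated WT array. Like F3, it was lowest on the untreated KO array, with KO minus WT at 1.20 with DSS and -1.48 without, and its KO DSS value was 0.46 above the untreated WT array. Gas6, a vitamin K-dependent ligand of TAM receptors, was lower with DSS at -1.42 in KO and -1.08 in WT, and Tfpi2 at -1.51 in KO, though it passed through the untreated KO array alone. KO DSS minus untreated WT was -1.12 for Gas6 and -0.53 for Tfpi2. Of 4 thrombin and protease-activated receptor genes 2 passed, and the thrombin receptor gene F2r was higher by 1.01 with DSS in KO, by 0.23 against the untreated WT array, and differed by -0.32 in WT.

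**Figure D3:**
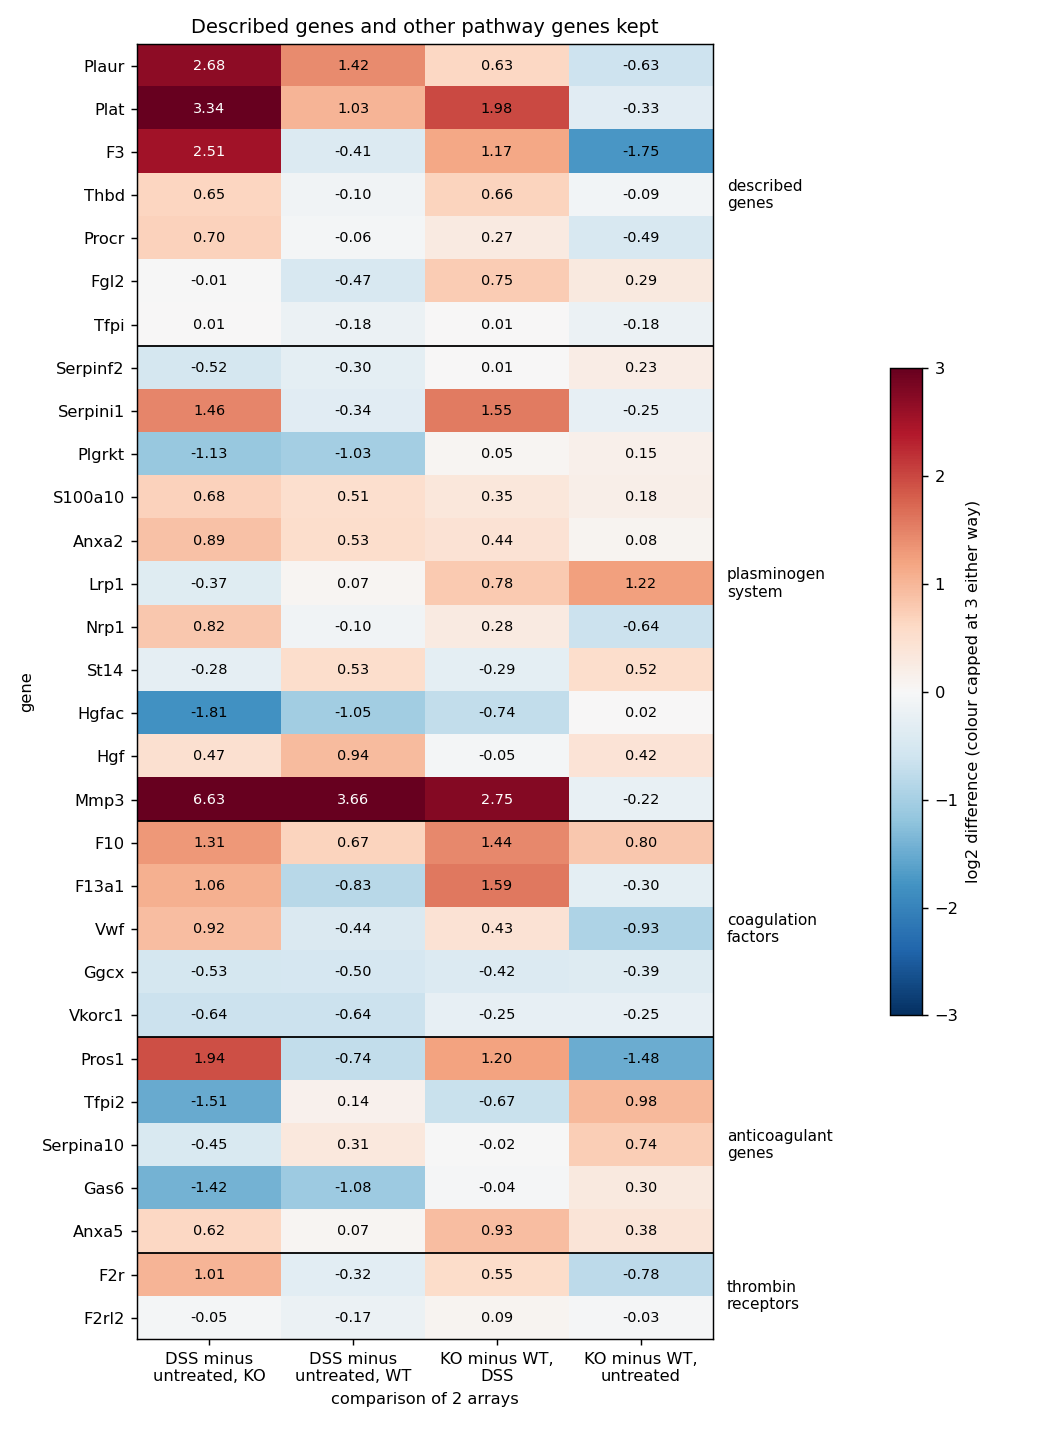
Rows are the 7 described genes and the 23 other pathway genes kept, and columns the 4 comparisons of 2 arrays, with the log2 difference printed in each cell and red for higher, blue for lower. Mmp3, Plat and Plaur are red in both DSS columns, while F3 and Pros1 are red for DSS in KO and blue for KO minus WT without DSS.

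Markers of cell types known to express some of these genes also differed between the arrays, and their part in the differences above was not tested. In such bulk tissue, fewer cells of a type and less RNA per cell cannot be told apart. Plaur and F13a1 are known in neutrophils, monocytes or macrophages. Of 11 neutrophil markers 7 passed the filter, with median log2 levels of 5.04 on the KO DSS, 3.82 on the WT DSS, 3.52 on the untreated KO and 2.98 on the untreated WT array. With DSS, 5 were at least 2-fold higher in KO and 3 in WT, where 10.8% and 5.82% of all genes were. Against the untreated WT array, 6 were at least 2-fold higher on the KO DSS array, where 6.14% of all genes were. The median KO minus WT difference of the list was 2.2 with DSS, with 4 at least 2-fold higher, where 4.22% of all genes were. Without DSS it was 0.28, with 1 at least 2-fold higher, where 3.43% of all genes were. S100a8 and S100a9 passed the filter through the DSS arrays alone and Clec4d through the KO DSS array alone, so these counts are partly set by the filter. Mpo and Cxcr2 were not kept. The macrophage and monocyte list (11 of 12 kept, without Cd163) had median log2 levels of 5.84, 5.41, 6.84 and 5.76 in the same order. With DSS, 1 was at least 2-fold higher and 2 lower in KO, and none was 2-fold apart in WT. None was 2-fold apart between the KO DSS and the untreated WT array. Its median KO minus WT difference was 0.16 with DSS and 0.31 without. In each, 1 marker was at least 2-fold higher, where 4.22% and 3.43% of all genes were.

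The endothelial list, for a cell type known to express Thbd, Procr, Tfpi and Plat, kept all 12 markers. Which cells gave these transcripts here was not tested. None was 2-fold apart in any of the 4 comparisons. The median log2 difference KO minus WT was 0.46 with DSS and 0.02 without, and DSS minus untreated was 0.68 in KO and 0.02 in WT. Of the 12 markers, 3 (Cdh5, Tek and Tie1) passed the filter through DSS arrays alone, so these medians are partly set by the filter. Fibroblast markers (9 of 9 kept) had median log2 levels of 7.78 on the KO DSS, 7.21 on the WT DSS, 6.81 on the untreated KO and 7.05 on the untreated WT array, and 3 were at least 2-fold higher in KO over WT with DSS, where 4.22% of all genes were. The B cell markers Ms4a1, Cd79a and Cd79b (3 of 4 kept) had median log2 levels of 6.90 on the KO DSS, 4.60 on the WT DSS, 4.10 on the untreated KO and 5.91 on the untreated WT array. All 3 were at least 2-fold higher in KO than in WT with DSS and at least 2-fold lower without, as F3 was and as 0.87% of all genes were. The median KO minus WT differences with DSS of the remaining lists were 0.30 for platelets (6 of 10 kept), 0.11 for smooth muscle (6 of 6), 1.18 for mesothelium (4 of 6), 0.35 for squamous epithelium (2 of 10), 0.06 for T cells (5 of 6), -1.31 for adipocytes (2 of 6) and -0.15 for colonic epithelium (12 of 12). Without DSS, the smooth muscle median was -0.94, with 3 of 6 markers at least 2-fold lower in KO, where 5.98% of all genes were, and the adipocyte median was 1.14, with 1 of 2 higher. The other medians without DSS were 0.24 for platelets, -0.10 for mesothelium, 0.26 for squamous epithelium, 0.47 for T cells, 0.19 for colonic epithelium, with 2 of 12 higher, and -0.27 for fibroblasts, with 1 of 9 lower. The part of these lists in the lower F3 and Pros1 values of the untreated KO array was not tested. The squamous markers Krt5, Krt14, Krt13, Krt4 and Trp63 did not pass the filter on any array.

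**Figure D4:**
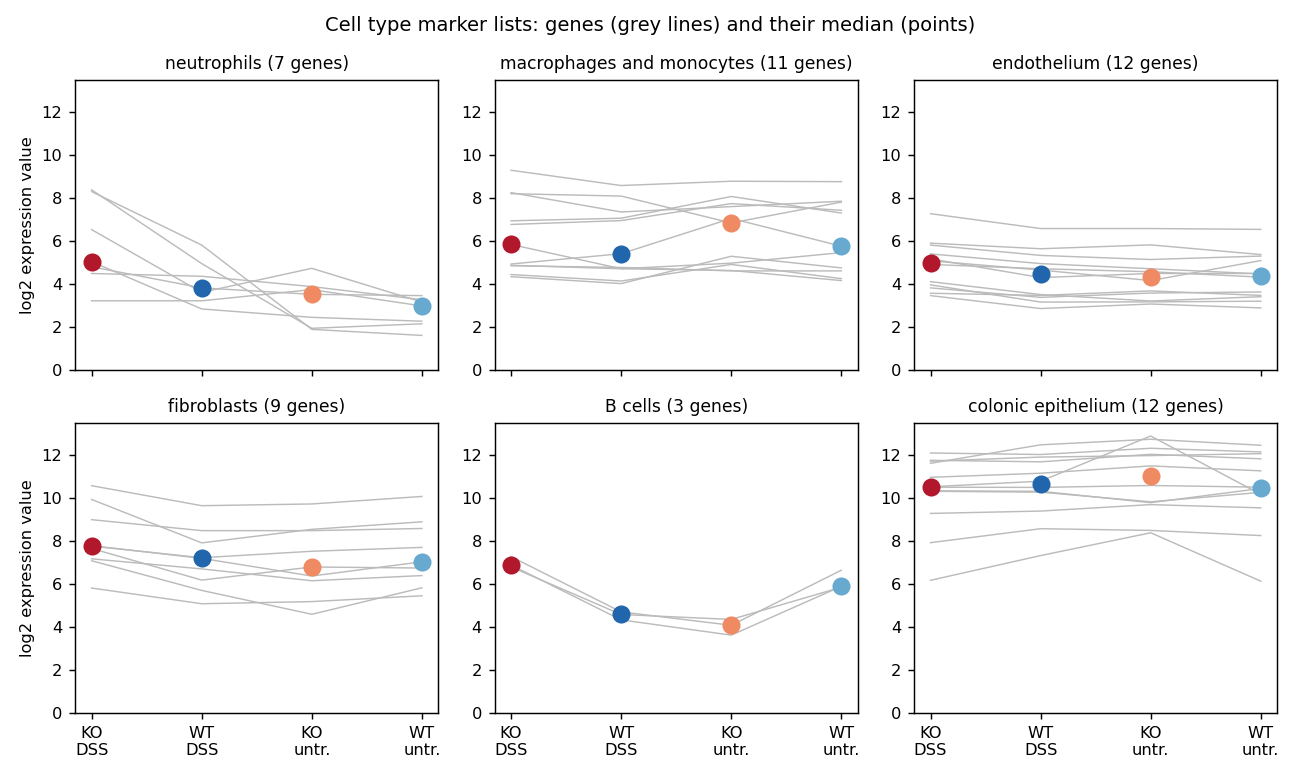
Each panel shows 1 marker list, with the log2 expression value on the vertical axis and the 4 arrays along the horizontal axis. Grey lines are single genes and points the median of the list on each array. Neutrophil medians were highest on the KO DSS array (5.04), endothelial medians lay close together, and B cell medians were lowest on the untreated KO array (4.10).

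The genes nearest in pattern were sought for the 3 genes that spanned at least 1 on the log2 scale, by the Euclidean distance between the 4 values after each gene's own mean was subtracted. This measure rests on 4 arrays. Nearest to Plaur were Lbp, the lipopolysaccharide-binding protein gene (distance 0.112), Phlda2 (0.171) and Dipk1b (0.188), and 11 genes lay within 0.5. Lbp had DSS differences of 2.77 in KO and 1.39 in WT on the log2 scale. Nearest to Plat were Kcnj8, a potassium channel gene (0.142), Aldh1a3, a retinaldehyde dehydrogenase gene (0.347), and the cytokine gene Il1b (0.425), and no other gene lay within 0.5. Kcnj8 had KO minus WT differences of 1.85 with DSS and -0.19 without. Nearest to F3 were the cannabinoid receptor gene Cnr1 (0.243), Phldb2 (0.252) and Cxcl13 (0.258), a chemokine that draws B cells to lymphoid follicles, with 25 genes within 0.5. Cxcl13 had log2 values of 8.53 on the KO DSS and 5.97 on the untreated KO array, and of 7.07 on the WT DSS and 7.50 on the untreated WT array, in the order of the F3 values.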

How the data were processed

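Total RNA from distal colon, extracted with Trizol, was hybridised as biotinylated cRNA to Affymetrix arrays, per the labels' protocols. The authors deposited 1 table of 45101 probe sets on a log scale, read here as log2, since the highest value would be 556821 on a natural log scale and 9608 on a log2 scale, and a 16-bit scanner ends at 65535. Summarization and normalization are not given in the sources used here. Array medians lay between 3.41 and 3.46, and values were used as deposited. The number of arrays limits the precision.

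Probe sets were named by the platform annotation, updated by Entrez number through RefSeq (GRCm38.p6, names only), which gave 34945 probe sets 1 symbol. Probe sets above the array median on at least 1 array were kept (24602), and a gene was represented by its brightest, giving 12189 genes. Pairs of arrays were compared as log2 differences, counted past 2-fold with no test. limma 3.58.1 (R 4.3.3) fitted genotype and treatment with lmFit and eBayes (trend on intensity). Its two-sided p-values were adjusted over all genes by Benjamini and Hochberg's method. The limma fit was also run on simulated data, where recovery of known changes was required only at a small fixed spread. That check does not show how well it recovers changes at the spread of these arrays. Named genes were the 9 genes, Adamts12, up to 3 nearest patterns each, and list genes past 2-fold in the same direction in 2 comparisons or in counts of 5 or fewer. Others (Hoxb13, Hoxd13, Car1, Anxa2, Anxa5, S100a10, Plg, the fibrinogen genes and members of marker lists) were named after their values were seen. The 9 genes and the lists were chosen with earlier results of these data known.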

Additional observations from a re-analysis of the deposited data

Results flagged for a closer look

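These probe sets differed in opposite directions with DSS in KO and WT, or between KO and WT with and without DSS. The difference between the 2 effects was not tested, since 1 array per group allows no test. F3 gave 2.92 as the DSS effect in KO minus that in WT on the log2 scale, higher with DSS in KO and lower in WT. Plat gave 2.31 and Plaur 1.26, higher with DSS in both genotypes, but with KO above WT under DSS and below it without. The dim second Plat probe set (1458553_at) gave -0.53. Procr gave 0.76 and Thbd 0.75. The 4 Tfpi probe sets gave 0.19 (1451790_a_at), 1.55 (1451791_at), 1.39 (1438530_at) and 1.00 (1452432_at). The untreated KO array enters each of these values. Those of the Tfpi probe sets 1438530_at and 1452432_at were partly set by the filter.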

How the results depend on the processing

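The settings varied were the scaling (quantile normalization or median centring), the filter (none, or the 75th percentile), the probe set (the mean over a gene's, or none with an _a, _s or _x suffix), another untreated array, and limma without the covariate or the trend. Of 187 values of single genes under these, 180 stayed within 1.5-fold of the reported value, 7 moved by more and 0 changed sign from a 2-fold difference. Many of the 187 could not move. A change of filter left each gene's brightest probe set as it was. The mean changed nothing for genes with 1 kept probe set. Leaving out suffixed probe sets changed nothing for genes whose brightest has no suffix. The 180 is therefore no measure of stability. Without suffixed probe sets, the count of described genes past 2-fold with DSS was 2 in place of 3 in KO and 1 in place of 2 in WT. The only Plaur probe set is then left out. With the mean over probe sets, the count for the difference of the DSS effect was 4 in place of 3, with Tfpi added. The Tfpi mean is partly set by the filter, through its probe sets 1438530_at and 1452432_at. limma's count of DSS genes at an adjusted p under 0.05 was 1 in place of 0 without the covariate and 1 with quantile normalization, in neither case 1 of the described genes. Plaur's limma adjusted p for DSS ranged from 0.133 to 0.519 over these alternatives. Over all genes, 748 in place of 1312 were 2-fold higher with the KO DSS array set against the untreated WT array. With DSS, 329 in place of 514 were 2-fold higher in KO under the 75th percentile filter, which leaves 8046 genes. The counts of pathway and marker genes against the untreated WT array, and the following comparison, were chosen after seeing the data. With the untreated KO array as its reference, F3 was 1.34 higher on the WT DSS array, against -0.41. No paired analysis was possible because the labels give no replicate numbers and each group has 1 array. limma's genotype covariate sets DSS against untreated within a genotype, as reported. Signal over background limits what can be said of Plau and Serpinb2.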
